A study of Mus musculus with 444 samples.

Results

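The immediate early and heat shock genes described here are a set of 41 genes, matched through their Entrez gene identifiers in single-cell RNA-seq of the mouse mammary epithelium. All 41 were found among the 25136 genes kept from the count tables. They fall into 7 AP-1 members (Fos, Fosb, Fosl2, Jun, Junb, Jund and Atf3), 26 other early genes and 8 heat shock genes (Hspa1a, Hspa1b, Hspa8, Hspb1, Hsph1, Dnajb1, Dnaja1 and Hsp90aa1). Of the members, 38 had reads in at least 10% of the retained cells, while Egr3, Dusp5 and Socs3 did not.

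Immediate early genes are transcribed within minutes of a stimulus, before any new protein is made, because the factors that switch them on are already present in the resting cell. The Fos and Jun proteins pair through leucine zippers to form AP-1, a transcription factor that carries the first signal to later target genes, and several other early genes encode the inhibitors that end the response. Heat shock genes encode chaperones that hold or refold damaged proteins and are switched on by heat shock factor. Both sets are also known to be induced when a solid tissue is dissociated into single cells, as was done for this tissue.

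Untreated female mice of the inbred FVB/NJ strain supplied the mammary glands, which gave 221 cells at puberty and 223 in adulthood. Names of the deposited tables mark the stages as 4 and 10 weeks of age, whereas the methods of the study put the pubertal mice slightly older. Lineage-negative cells (depleted of blood and endothelial cells) were sorted as total epithelium and captured one per chamber on the Fluidigm C1, and polyadenylated RNA was amplified without molecular identifiers. Several mice were pooled for a sort and the experiment was repeated, but no label ties a cell to an animal, a sort or a capture run, so each stage is 1 sample of many cells.

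The promoters of 5 members are shown because they carry the letters through which these 2 kinds of gene are known to be switched on. Each line gives the 140 bases that end just before the transcription start in the RefSeq annotation of GRCm38.p6, the assembly also called mm10, read 5′ to 3′ on the strand of the gene. Capitals mark the cAMP response half-site TGACG and the TATA box TATAAA in Fos, the full cAMP response element TGACGTCA in Maff, and the heat shock element core GAANNTTC in Hspa1a, Hspa1b and Hspb1. Maff has 3 annotated starts, and the one shown, picked because its promoter holds the element, lies 899 bases downstream of the first.
Fos (chr12:85473750-85473889, plus strand): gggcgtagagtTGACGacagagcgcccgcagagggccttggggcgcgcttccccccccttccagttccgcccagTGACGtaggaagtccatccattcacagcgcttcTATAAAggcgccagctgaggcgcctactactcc
Maff (chr15:79347380-79347519, plus strand): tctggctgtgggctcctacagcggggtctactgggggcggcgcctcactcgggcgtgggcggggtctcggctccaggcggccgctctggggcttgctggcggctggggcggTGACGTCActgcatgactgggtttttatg
Hspa1a (chr17:34972157-34972296, minus strand): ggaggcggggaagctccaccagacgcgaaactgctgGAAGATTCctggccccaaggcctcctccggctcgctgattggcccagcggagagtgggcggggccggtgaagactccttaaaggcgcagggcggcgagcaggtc
Hspa1b (chr17:34959239-34959378, minus strand): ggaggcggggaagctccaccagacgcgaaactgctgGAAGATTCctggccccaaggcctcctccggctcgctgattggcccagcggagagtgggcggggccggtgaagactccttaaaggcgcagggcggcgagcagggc
Hspb1 (chr5:135887779-135887918, plus strand): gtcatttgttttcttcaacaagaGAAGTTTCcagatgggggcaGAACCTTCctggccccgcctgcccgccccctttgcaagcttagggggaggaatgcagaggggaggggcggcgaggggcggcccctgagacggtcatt

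In Fos, the half-sites began 129 and 66 bases before the start. The cAMP response element of Maff began 29 bases before it, and the heat shock element core began 104 bases before the start in both Hspa1a and Hspa1b, and 117 and 97 bases before it in Hspb1. The Hspa1a and Hspa1b promoters had the same base at 139 of 140 positions. These neighbouring genes on chromosome 17 encode nearly the same inducible HSP70 chaperone, so how reads were divided between them is uncertain.

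A RefSeq promoter was found for 34 of the 41 members, and the 250 bases before each start were searched on both strands, a gene with several starts being counted if any of them had a match. TGACG, which is also counted within the full element, was present in 18 of the 34 members and in 19.8% of 27025 genes. GAANNTTC was present in 4 of the 6 heat shock members with a promoter (Dnaja1, Hspa1a, Hspa1b and Hspb1), in the AP-1 members Fosl2 and Jun, and in 7.73% of all genes. The full element TGACGTCA was present in Btg2, Dusp1 and Maff, against 1.77% of all genes, and the CArG box, the binding letters of serum response factor, in Dusp5, Egr2 and Zfp36, against 1.62%. The AP-1 site TGANTCA was found in Zfp36l1 among the members and in 7.82% of all genes. These matches describe letters in a window and were not measured as binding. Letters farther upstream were not searched. No promoter was available for Egr1, Egr3, Ier2, Myc, Cebpd, Hspa8 and Hsp90aa1, so nothing is known here of their letters.

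Of the 444 cells, 323 held at least 100000 read pairs on the kept genes and at least 1500 of those genes, namely 171 pubertal and 152 adult cells. The study kept more cells of both stages under these minimums, and the reason for the gap is not known. Levels are given as log2(CPM+1), where CPM is the share of a gene in the read pairs on the kept genes, scaled to a common total in every cell, averaged over cells, and a difference is one between such means. All 10 basal and all 10 luminal keratin, contractile and junction markers were detected in both stages. At least 3 of 7 fibroblast markers had reads in 25 pubertal and 14 adult cells, and at least 3 of 8 immune markers in 1 cell of each stage. At least 3 of 8 endothelial markers had reads in 9 pubertal and 3 adult cells, and at least 3 of 6 pericyte markers in 7 and 3. Adult cells with title numbers 48 to 188 (107 retained) were set apart from the other adult cells (45 retained). The set was drawn because of an earlier finding on the small nuclear RNA Rn7sk. Rn7sk had reads in all 107 of cells 48 to 188, in 8 of the other adult cells and in 35 of the pubertal cells. These counts are therefore no separate support for the set. No label calls this set a batch, so the main stage differences are also given for each adult set. With no replicate of a stage, differences were not tested, and SDs and ranges describe cells rather than animals.

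A difference of at least 1 in mean log2(CPM+1) was counted for each gene. It was reached by 14 of the 41 members in the adult direction, against 5.44% of the 8767 genes with reads in at least 10% of cells, and by 2 members, Btg1 and Rhob, in the pubertal direction, against 8.70% of those genes. The 14 were Fos, Junb, Egr1, Egr2, Maff, Nr4a2, Klf4, Gadd45b, Cebpd, Hspa1a, Hspa1b, Hsph1, Dnajb1 and Hsp90aa1. Over all members the median difference, adult minus puberty, was 0.74, and over all genes it was −0.12. By list, 2 of 7 AP-1 members (median difference 0.76), 7 of 26 other early genes (median 0.54) and 5 of 8 heat shock genes (median 1.16) were at least 1 higher in the adult. In total 31 members had a higher and 10 a lower mean in the adult cells, and of the 8767 genes 42.3% had a higher one. The ranges over cells of the 2 stages overlapped for all 41 members. With a pseudocount of 10 CPM in place of 1, which gives low levels less weight, the adult count was 8 (Fos, Junb, Egr1, Maff, Klf4, Gadd45b, Hspa1a and Hsp90aa1) and the pubertal count 1 (Btg1), against 1.46% and 2.73% of all genes.

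The 2 adult sets were unlike each other in this count. In cells 48 to 188, 18 members were at least 1 above their pubertal mean and 3 at least 1 below, against 10.2% and 8.73% of all genes. In the other adult cells, 10 members were at least 1 above and 2 at least 1 below, against 3.96% and 17.1%. The median member difference was 0.85 in cells 48 to 188 and 0.10 in the other adult cells, beside medians over all genes of −0.03 and −0.36. Both comparisons use the same pubertal cells.

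**Figure D1:**
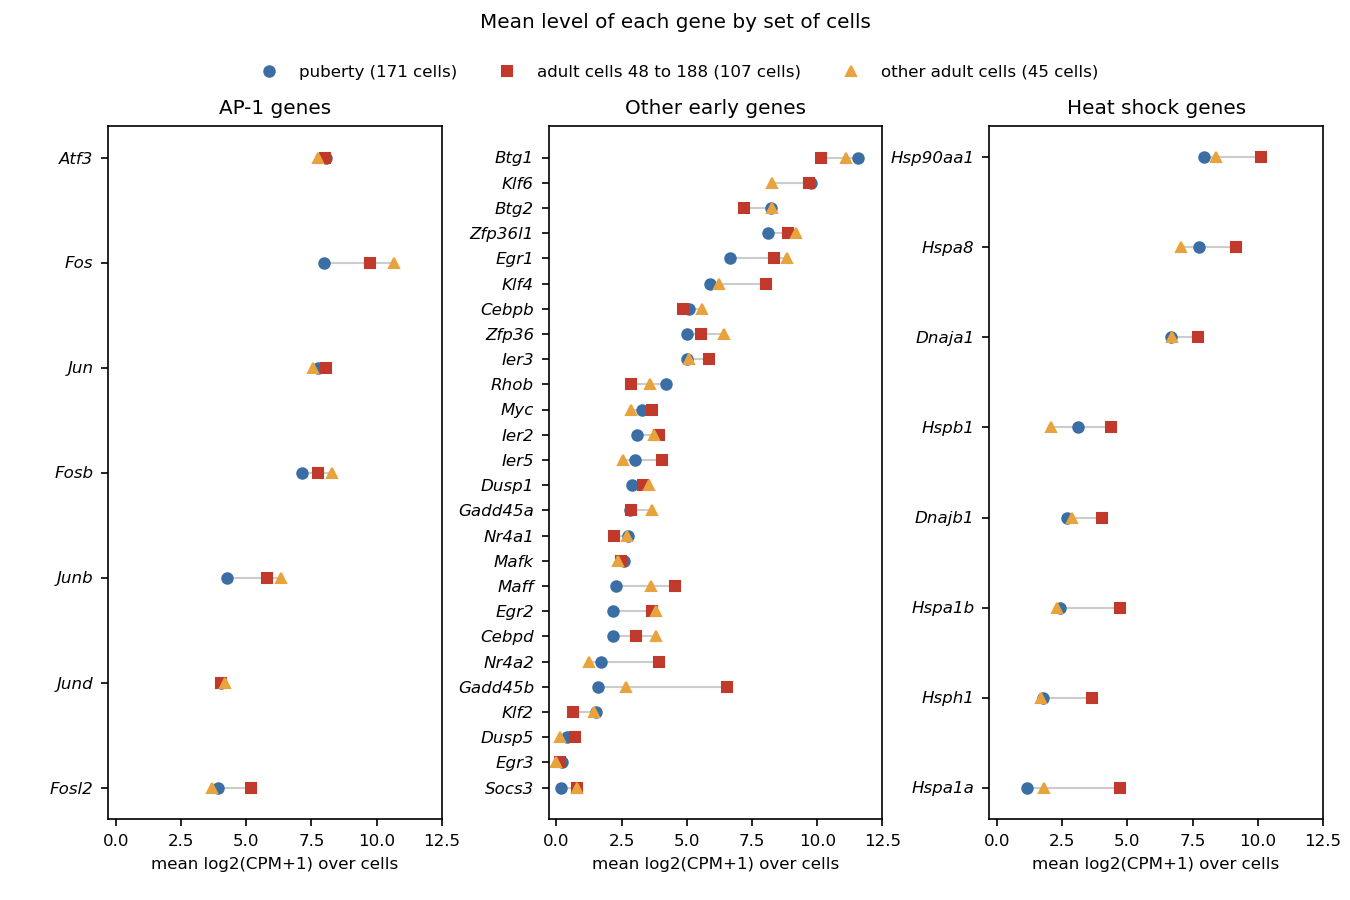
Mean log2(CPM+1) over cells (horizontal axis) for each of the 41 genes (rows) in pubertal cells (circles), adult cells 48 to 188 (squares) and the other adult cells (triangles). Fos, Junb and Egr1 lie to the right of puberty in both adult sets, whereas the squares of all 8 heat shock genes lie at least 1 to the right of puberty and their triangles do not.

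Fos, the founding AP-1 subunit, had the greatest difference of the AP-1 members. Its level over pubertal cells ran from 0.00 to 13.44 with a median of 8.83, and over adult cells from 3.44 to 14.95 with a median of 10.36. Every retained adult cell had Fos reads, while the pubertal stage held cells without any. The mean was 7.97 ± 3.45 (SD over 171 cells) at puberty and 10.01 ± 2.34 (SD over 152 cells) in the adult, a difference of 2.03. Against puberty, the difference was 1.76 in cells 48 to 188 and 2.68 in the other adult cells.

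Junb, a Jun relative that is itself induced early, followed Fos. Its median was 4.77 at puberty (range 0.00 to 10.36) and 6.44 in the adult (range 0.00 to 10.51), and its mean was 1.71 higher in the adult, by 1.54 in cells 48 to 188 and 2.09 in the others. At an equal depth of 100000 read pairs, Junb reads were found in 69.0% of cells at puberty (95% interval 61.5 to 75.8, exact Clopper-Pearson) and in 86.8% in the adult (80.4 to 91.8). Fosb, a Fos paralog, was 0.76 higher in the adult, 0.61 in cells 48 to 188 and 1.14 in the other cells.

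Jun, Jund and Atf3 had nearly equal means at the 2 stages. Jun, the main partner of Fos, had means of 7.75 ± 2.03 and 7.92 ± 2.26 (SD over cells), a difference of 0.16, with 0.31 in cells 48 to 188 and −0.19 in the others. Jund, the Jun protein present in resting cells, had means of 4.05 and 4.08. Atf3, a stress-induced repressor that pairs with Jun proteins, was at 8.04 ± 3.13 in pubertal and 7.94 ± 3.06 in adult cells. Fosl2 (also called Fra-2) was 0.82 higher in the adult and unlike in the adult sets, at 1.26 above puberty in cells 48 to 188 and 0.22 below it in the others (−0.22). The AP-1 score, the mean over the 7 genes in a cell, was 6.16 ± 1.48 at puberty and 6.93 ± 1.40 in the adult (SD over cells), and its difference of 0.77 was close to the same in cells 48 to 188 (0.78) and the other adult cells (0.76).

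Among the other early genes, the zinc finger factors of the Egr family, targets of growth factor signalling through serum response factor, differed between stages in both adult sets. Egr1 ranged from 0.00 to 12.44 around a median of 7.42 at puberty and from 0.00 to 13.07 around 8.91 in the adult. Its mean was higher by 1.86 in the adult, with 1.72 in cells 48 to 188 and 2.21 in the others. Egr2, a relative of Egr1, was higher by 1.55 in the adult, with 1.51 and 1.64 in the 2 sets. The share of cells with Egr2 reads at equal depth was 33.3% (26.3 to 40.9) at puberty and 59.9% (51.6 to 67.7) in the adult. Egr3 was near the limit of detection, with reads at equal depth in 6 pubertal and 2 adult cells. It was found in 0 of 45 other adult cells, for which a limit of 3 cells gives a share of up to 6.67% and the exact interval one of up to 7.87%.

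Maff, a small Maf protein that lacks an activation domain and pairs with other leucine zipper factors, was at 2.30 ± 2.55 in pubertal and 4.28 ± 2.81 in adult cells. The difference of 1.98 was 2.25 in cells 48 to 188 and 1.34 in the others. Its relative Mafk showed means of 2.59 and 2.45. Of the orphan nuclear receptors, Nr4a2 was higher by 2.24 in cells 48 to 188 but lower in the other adult cells (−0.45), and Nr4a1 had means of 2.73 and 2.35.

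The Krüppel-like factors were not alike. Klf4, a factor of epithelial differentiation, was 1.63 higher in the adult, 2.16 in cells 48 to 188 and 0.36 in the other cells. Klf6 was at 9.76 in pubertal and 9.28 in adult cells, and in the other adult cells it was 1.49 below puberty (−1.49). Klf2, best known from blood vessel endothelium, had means of 1.53 and 0.88, and differed by −0.89 in cells 48 to 188 and −0.091 in the others. Of the C/EBP factors, Cebpd, an acute phase activator, was 1.11 higher in the adult, 0.88 in cells 48 to 188 and 1.67 in the others, whereas Cebpb, a regulator of mammary differentiation, had means of 5.10 and 5.06.

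Gadd45b, a stress-induced protein that binds a kinase upstream of p38 and JNK, had the greatest difference of all 41 members. Its median was 0.00 in pubertal cells (upper quartile 2.33, highest 10.59) and 5.70 in adult cells (highest 12.62), and its mean was 3.80 higher in the adult. Pubertal cells were mostly without reads, while cells 48 to 188 mostly had them. Along the title number the pubertal cells were not uniform. In ranges of 25 numbers, the Gadd45b median was 0.00 in each range up to cell 175. It was 0.49 in cells 176 to 200 (8 retained) and 4.13 from cell 201 on (10 retained). At equal depth, 22.8% of pubertal cells (16.7 to 29.8), 86.9% of cells 48 to 188 (79.0 to 92.7) and 37.8% of the other adult cells (23.8 to 53.5) had Gadd45b reads. The differences from puberty were 4.94 and 1.07 in the 2 adult sets. Its paralog Gadd45a differed by 0.27, with 0.028 in cells 48 to 188 and 0.84 in the others.

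**Figure D2:**
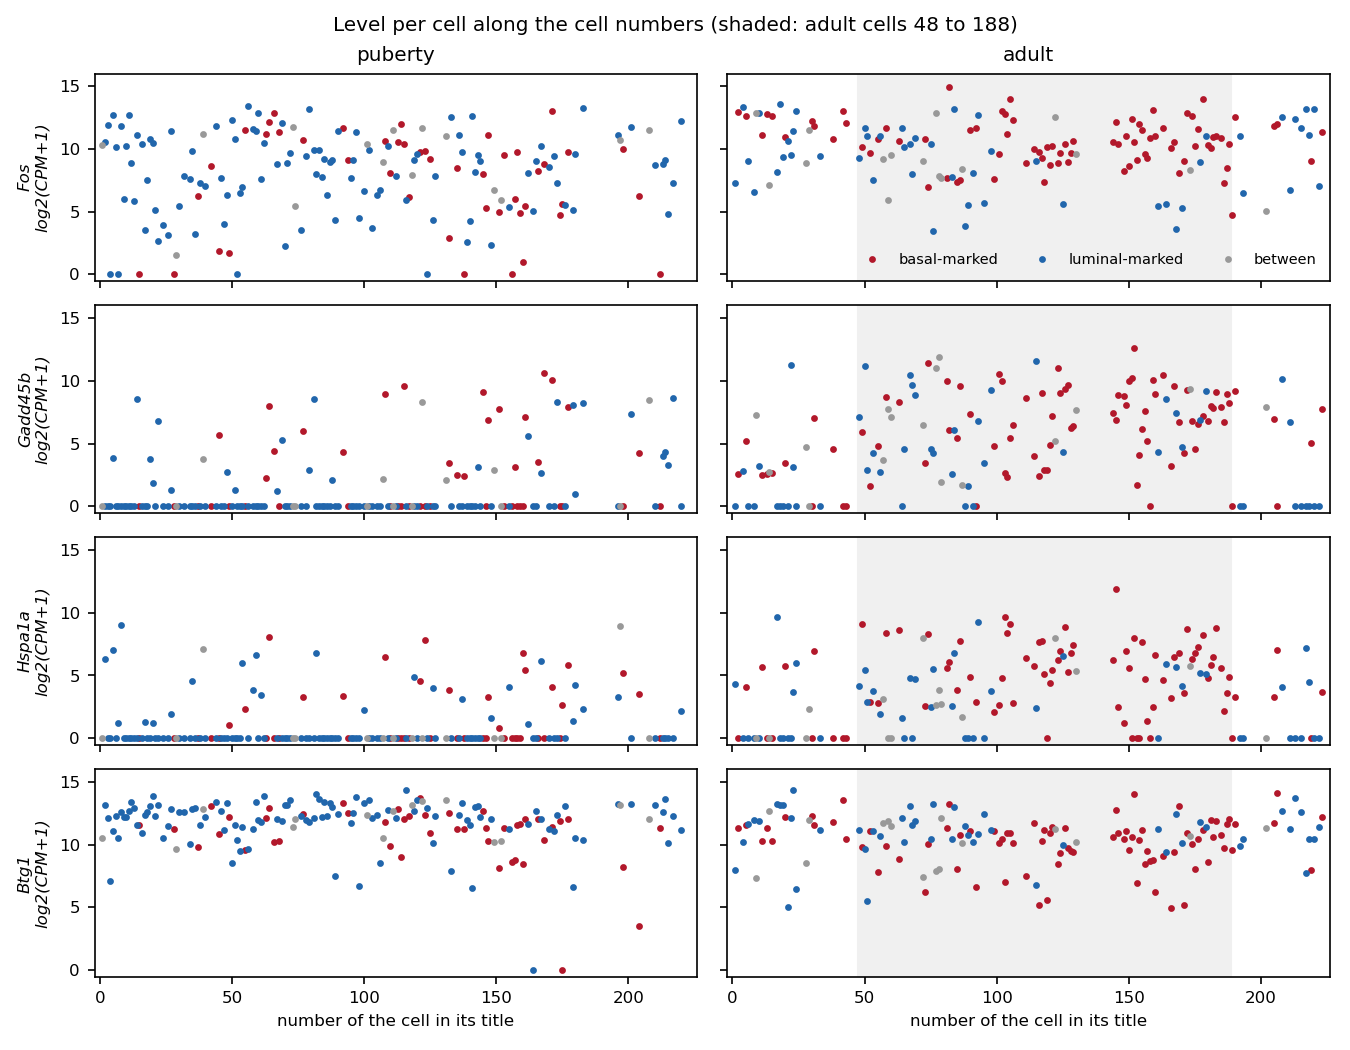
Level of Fos, Gadd45b, Hspa1a and Btg1 in log2(CPM+1) (vertical axes) in each retained cell, along the number in the cell's title (horizontal axis), for puberty (left) and adult (right), coloured by marker class, with adult cells 48 to 188 shaded. Gadd45b and Hspa1a are at 0 in most pubertal cells and above 0 in most shaded cells, while Fos is high inside and outside the shaded range.

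Btg1, an antiproliferative gene, was lower in the adult. It ran from 0.00 to 14.39 with a median of 12.09 over pubertal cells and from 4.93 to 14.38 with a median of 10.78 over adult cells. The means were 11.57 ± 2.11 and 10.42 ± 1.99 (SD over cells), a difference of −1.15, with −1.43 in cells 48 to 188 and −0.48 in the others. Btg2, of the same family, differed by −1.04 in cells 48 to 188 and 0.03 in the others. Rhob, which encodes an early-induced small GTPase, was at 4.19 in pubertal and 3.08 in adult cells, at 1.34 below puberty in cells 48 to 188 (−1.34) and 0.59 below it in the others (−0.59). Rhob reads were found at equal depth in 66.7% of pubertal cells (59.1 to 73.7) and 47.4% of all adult cells (39.2 to 55.6). With TMM scaling factors, the differences of Btg1 (−0.92) and Rhob (−0.99) fell short of 1.

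Of the early genes that end the response, those named next did not reach a difference of 1 over all adult cells. The mRNA-destabilizing proteins Zfp36 and Zfp36l1, which bind AU-rich elements, were 0.79 and 0.85 higher in the adult. Zfp36 was 0.53 above puberty in cells 48 to 188 and 1.42 in the others, and Zfp36l1 was 0.75 and 1.08 above it. Dusp1, a phosphatase of MAP kinases, differed by 0.47, and Dusp5, which acts on ERK, had reads at equal depth in 6.43% of cells at puberty (3.25 to 11.2) and 8.55% in the adult (4.63 to 14.2). Socs3, a feedback inhibitor of cytokine signalling, had reads in 2.92% (0.956 to 6.69) and 9.87% (5.63 to 15.8).

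The genes Ier2, Ier3 and Ier5, named for their early response, were 0.80, 0.63 and 0.60 higher in the adult. Ier5 differed by 1.05 in cells 48 to 188 and by −0.46 in the other cells. Myc, a growth-promoting factor, showed a mean difference of 0.13 over cells, while its summed reads at equal depth were lower in the adult, at 107 CPM against 199 CPM. A single pubertal cell held 25.3% of the pubertal Myc reads. For Socs3, a single cell held 74.3% of the pubertal and 37.4% of the adult reads.

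All 8 heat shock genes had higher means in the adult, against 42.3% of all genes, and 5 were at least 1 higher, against 5.44%. The heat shock score was 4.18 ± 1.25 at puberty and 5.48 ± 1.61 in the adult (SD over cells), a difference of 1.30. This difference was 1.88 in cells 48 to 188 and −0.069 in the other adult cells. All 8 genes were at least 1 higher in cells 48 to 188, against 10.2% of all genes. In the other adult cells none were, against 3.96%, and Hspb1 alone was at least 1 lower, against 17.1%. Genes with reads per cell at equal depth had a median of 2818 at puberty, 2836 in cells 48 to 188 and 2192 in the other adult cells. The sets also differed in their share of basal-marked cells, which are defined below. The part of either difference in the heat shock result was not tested.

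Hspa1a and Hspa1b, the inducible HSP70 genes whose promoters are shown above, were low or absent in most pubertal cells. By title number, the Hspa1a median was 3.77 in pubertal cells 176 to 200 (8 retained) and 0.00 in the other pubertal ranges of 25. Hspa1a had a median of 0.00 at puberty (highest 9.00) and 3.85 in the adult (highest 11.88), and Hspa1b had medians of 1.24 and 4.14. Either gene reached 10 CPM in 67 of 171 pubertal cells (39.2%, 31.8 to 46.9), 85 of 107 cells 48 to 188 (79.4%, 70.5 to 86.6) and 24 of 45 other adult cells (53.3%, 37.9 to 68.3). The mean of Hspa1a was 3.56 above puberty in cells 48 to 188 and 0.67 above it in the others, and that of Hspa1b was 2.30 above and 0.13 below (−0.13). Without this pair the heat shock score was 1.02 higher in the adult.

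**Figure D3:**
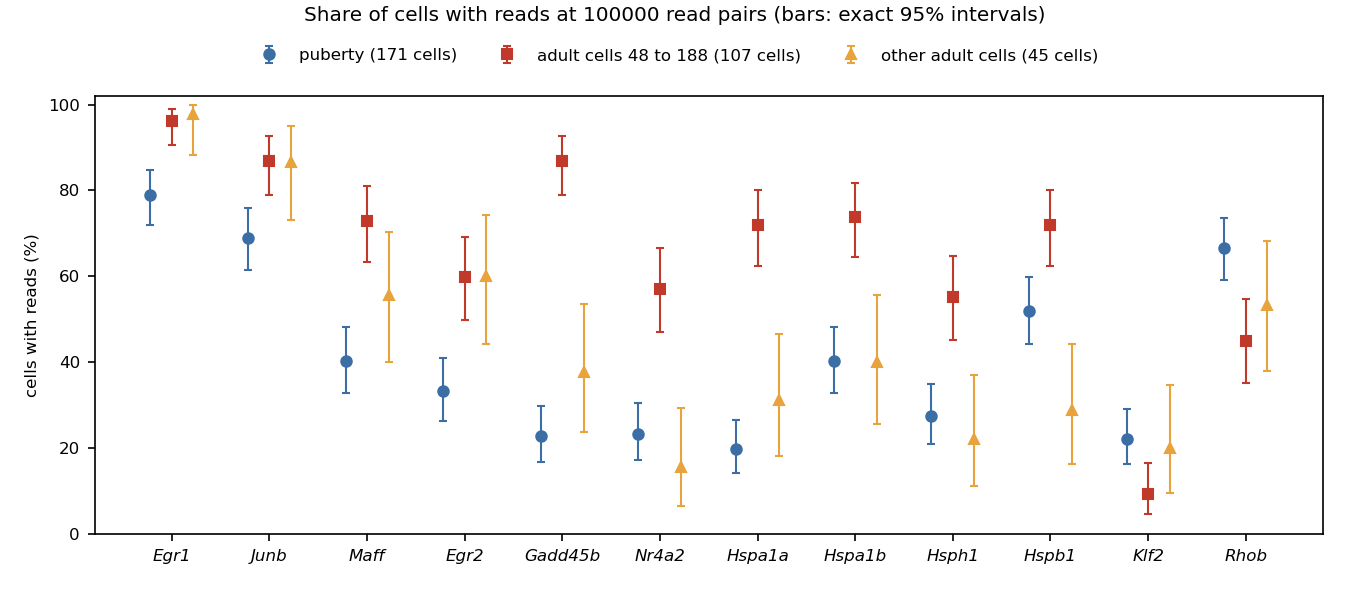
Percentage of cells with reads (vertical axis) for 12 of the 41 genes after each cell was thinned to 100000 read pairs, in pubertal cells, adult cells 48 to 188 and the other adult cells, with exact 95% intervals for counting error. Egr1, Junb and Egr2 have reads in similar shares of both adult sets, while Gadd45b, Nr4a2, Hspa1a, Hspa1b, Hsph1 and Hspb1 have a higher share in cells 48 to 188 than in the other 2 sets.

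Hsp90aa1, the stress-induced cytosolic HSP90, ranged from 0.00 to 10.68 around 8.56 at puberty and from 4.05 to 12.90 around 10.05 in the adult. Its mean was 1.69 higher in the adult, 2.19 in cells 48 to 188 and 0.48 in the others. Hspa8, the constitutive HSP70, differed by 1.43 in cells 48 to 188 and by −0.68 in the others. The HSP40 co-chaperones Dnajb1 and Dnaja1 were 1.35 and 1.03 above puberty in cells 48 to 188, and 0.18 and 0.04 above it in the others. Hsph1, an HSP110 that exchanges nucleotide on HSP70, was 1.89 above puberty in cells 48 to 188 and −0.077 from it in the others. A single adult cell held 48.6% of the adult Hsph1 reads. The small heat shock protein gene Hspb1 was 1.24 above puberty in cells 48 to 188 and 1.03 below it in the others (−1.03).

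Cells were then split by lineage markers into basal-marked cells (the myoepithelial side of the duct) and luminal-marked cells (the side facing the lumen), with a difference of at least 1 between the mean marker levels. This gave 46 basal-marked, 110 luminal-marked and 15 intermediate cells at puberty, and 85, 51 and 16 in the adult. Basal-marked cells were 26.9% of pubertal cells, 63.6% of cells 48 to 188 and 37.8% of the other adult cells. The differences over all cells given above include this mix, and its part in them was not tested. Egr2 and Hsph1, at least 1 higher in the adult over all cells, were under 1 in both classes. Egr2 differed by 0.71 in basal-marked and 0.97 in luminal-marked cells, and Hsph1 by 0.88 and 0.74. The cut is a range on a score, and 23 pubertal and 15 adult cells lay within 0.5 of it. The median basal marker score within luminal-marked cells was 0.46 at puberty, 3.94 in cells 48 to 188 and 1.38 in the other adult cells, so the adult luminal-marked cells held more basal transcripts. The part of this in the values below was not tested.

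In basal-marked cells, 19 members were at least 1 higher in the adult, against 8.92% of all genes, and 1 member, Rhob, at least 1 higher at puberty, against 11.0%. In luminal-marked cells, 5 members (Fos, Junb, Egr1, Gadd45b and Hspa1a) were at least 1 higher in the adult, against 3.52%. In the same cells, 4 (Btg2, Nr4a1, Cebpb and Hspb1) were at least 1 higher at puberty, against 13.2%. The adult sets were unlike for luminal-marked Fos. It was at 8.07 at puberty, 8.44 in the 28 luminal-marked cells 48 to 188 and 10.42 in the 23 other luminal-marked adult cells. The AP-1 score was 1.41 higher in adult basal-marked cells and 0.36 higher in adult luminal-marked cells than in their pubertal counterparts. The heat shock score was 1.62 and 0.40 higher, respectively, and the score of the other early genes differed by 0.74 in basal-marked and −0.0084 in luminal-marked cells.

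The basal AP-1 difference was present in both adult sets, at 1.36 in the 68 basal-marked cells 48 to 188 and 1.61 in the 17 other basal-marked adult cells. Among the members, Fos was at 7.37 in pubertal basal-marked cells, 10.36 in basal-marked cells 48 to 188 and 11.43 in the other basal-marked adult cells. Junb was at 3.69, 5.95 and 6.30 in the same cells, and Maff at 2.42, 5.47 and 4.58. Atf3, whose means over all cells were nearly equal, was at 6.97, 8.10 and 8.91. By contrast, the heat shock score of basal-marked cells was 1.90 above puberty in cells 48 to 188 and 0.50 above it in the others, and that of luminal-marked cells 1.02 above and 0.35 below (−0.35).

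**Figure D4:**
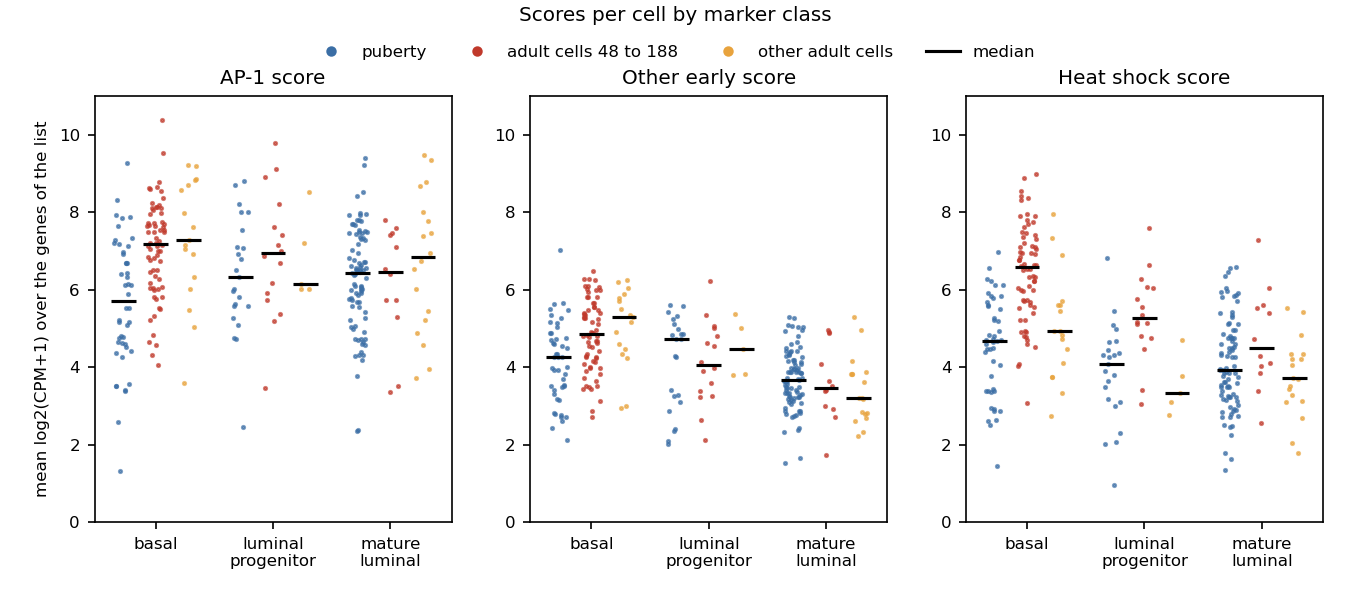
AP-1, other early and heat shock scores per cell (vertical axis, mean log2(CPM+1) over the genes of each list) for basal-marked, luminal progenitor-marked and mature luminal-marked cells, by set of cells, with black lines for medians. In basal-marked cells the median AP-1 score is 5.71 at puberty, 7.18 in adult cells 48 to 188 and 7.27 in the other adult cells, whereas the heat shock median of the other adult cells (4.94) is close to that of puberty (4.68).

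The AP-1 score sat on opposite sides of the lineage split at the 2 stages, as did 4 of its 7 genes (Fos, Fosb, Junb and Atf3). At puberty the AP-1 score was lower in basal-marked than in luminal-marked cells (−0.62), with 6 of 7 members lower, and in the adult it was higher (0.43). Fos, for example, was 0.70 lower in pubertal basal-marked cells (−0.70) and 1.24 higher in adult ones. Atf3 differed by −1.51 at puberty and 0.46 in the adult, and Fosl2 was higher in basal-marked cells at both stages (0.94 and 1.91). Jund was lower in basal-marked cells at both stages (−1.20 and −1.09), as was Jun (−0.49 and −0.40).

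At puberty, 9 members were at least 1 higher in basal-marked cells, against 10.2% of all genes, and 5 (Jund, Atf3, Btg1, Klf2 and Klf6) at least 1 higher in luminal-marked cells, against 8.34%. In the adult, 24 members were at least 1 higher in basal-marked cells, against 16.3%, and Jund was alone in being at least 1 higher in luminal-marked cells, against 5.04%. Members at least 1 higher in basal-marked cells at both stages were Egr1 (2.07 at puberty and 1.78 in the adult), Egr2 (2.50 and 2.25), Zfp36l1 (1.82 and 2.31), Nr4a2 (1.76 and 2.65), Gadd45b (1.74 and 2.38), Dusp1 (1.23 and 2.08), Klf4 (1.06 and 2.20), Hspa8 (1.35 and 1.83) and Hsph1 (1.37 and 1.51). Maff, Ier3, Nr4a1 and Hspb1 were on neither side at puberty, with differences between −0.25 and 0.14, and were 2.64, 2.33, 1.73 and 2.89 higher in adult basal-marked cells.

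All 8 heat shock genes were at least 1 higher in adult basal-marked cells than in adult luminal-marked cells, against 16.3% of all genes. The heat shock score differed between these classes by 0.52 at puberty and 1.73 in the adult, by 1.39 within cells 48 to 188 and 1.37 within the other adult cells. The other early score differed by 0.35 at puberty and 1.10 in the adult. Over all genes the median difference between the classes was 0.00 at puberty and 0.21 in the adult.

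**Figure D5:**
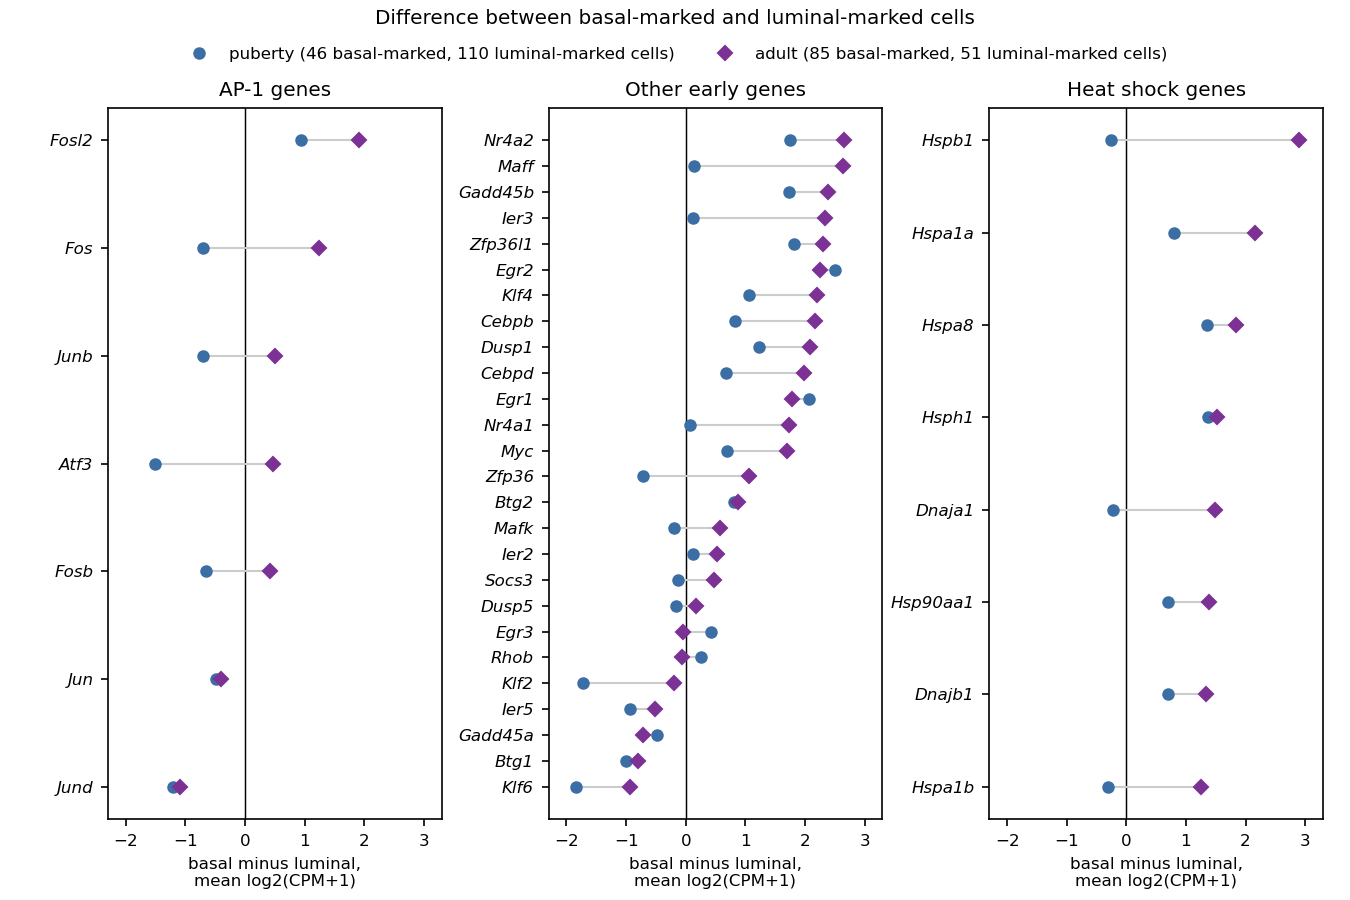
Difference in mean log2(CPM+1) between basal-marked and luminal-marked cells (horizontal axis) for each gene (rows) at puberty (circles) and in the adult (diamonds), with 0 as a black line. Fos, Junb, Fosb, Atf3 and Zfp36 lie left of 0 at puberty and right of it in the adult, while Jund, Jun, Klf6, Btg1, Klf2, Ier5 and Gadd45a are left of 0 at both stages.

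Luminal-marked cells were split further into those with higher luminal progenitor markers (23 pubertal, 21 adult) and those with higher mature luminal markers (87 pubertal, 30 adult). The AP-1 score of progenitor-marked cells was 0.12 above that of mature-marked cells at puberty and 0.39 above it in the adult. Within the adult sets it was 0.75 above in cells 48 to 188 and 0.06 above in the others. Nr4a1 was at 4.20 in pubertal and 0.82 in adult progenitor-marked cells, whereas Gadd45b was at 2.37 and 6.21. In mature-marked cells Gadd45b was at 0.69 at puberty and 2.13 in the adult. Btg1 was at 12.12 and 10.60 in the mature-marked cells of the 2 stages and at 10.73 and 11.40 in the progenitor-marked cells. The small numbers of progenitor-marked cells leave these values loosely determined.

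Levels were compared between genes only per length, as RPKM from reads summed over cells at equal depth. At puberty Btg1 was the most abundant member (1014 RPKM), followed by Fos (615.5), Klf6 (459.7) and Atf3 (440.9). In the adult Fos led with 1289.5 RPKM, followed by Atf3 (572.6), Btg1 (549.3), Hsp90aa1 (472.6) and Klf6 (426.7). At the bottom were Egr3 (0.984 RPKM over both stages), Dusp5 (7.85) and Socs3 (9.83). In CPM, the Fos sum was 1288 (exact Poisson 95% interval 1271 to 1305) at puberty and 2699 (2673 to 2725) in the adult, and the Gadd45b sum was 49.8 (46.5 to 53.3) and 353 (344 to 363). These intervals cover counting error only, since amplified reads are not independent molecules. Sums and means over cells gave opposite directions for Fosl2, Atf3, Egr3, Mafk, Myc, Rhob and Cebpb. The Fosl2 sum was 153 CPM at puberty and 145 CPM in the adult, and the Rhob sum 82.2 CPM and 87.0 CPM, with 33.0% of the adult Rhob reads in a single cell.

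Most cells of both stages held AP-1 transcripts of both partner families. A Fos and a Jun family member each reached 10 CPM in 163 of the 171 cells at puberty (95.3%, 91.0 to 98.0) and in 149 of the 152 in the adult (98.0%, 94.3 to 99.6). Fos, Jun, Junb and Egr1 together reached 10 CPM in 76 cells at puberty (44.4%, 36.9 to 52.2) and in 117 in the adult (77.0%, 69.5 to 83.4), with 76.6% in cells 48 to 188 and 77.8% in the others. Cells with at most 1 of these 4 genes at 10 CPM numbered 7 at puberty (4.09%, 1.66 to 8.25) and 0 in the adult, for which a limit of 3 cells gives a share of up to 1.97% and the exact interval one of up to 2.40%. The median number of other early members at 10 CPM was 12 per pubertal and 15 per adult cell, and of heat shock members 4 and 5.

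Over cells of 1 stage, the 3 scores moved together to a moderate degree. Pearson's r between the AP-1 and other early scores was 0.50 over 171 pubertal and 0.55 over 152 adult cells, and between the AP-1 and heat shock scores 0.34 and 0.28. The heat shock score was also related to the number of genes detected (r of 0.43 and 0.60), and the AP-1 score to the mitochondrial share of reads (0.16 and 0.25) and inversely to log10 read pairs (−0.24 and −0.27, and −0.37 in cells 48 to 188). These cells share library depth and lineage, so the values are descriptions. Among 666 pairs of the 37 members with reads in at least 25% of all retained cells, the closest were Egr1 with Zfp36l1 (0.44 and 0.40), Fos with Fosb (0.39 and 0.40), Fos with Egr1 (0.36 and 0.35) and Hspa1a with Hspa1b (0.35 and 0.49). The Hspa1a and Hspa1b value was 0.53 in cells 48 to 188 and −0.03 in the other adult cells.

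Outside the set, the 10 genes most like the AP-1 score by the lower of both within-stage correlations, among 5115 genes with reads in at least 25% of cells, were Malat1, Sik1, Id3, Igfbp7, Pnrc1, Tor1aip1, Irf1, Mcl1, Ryk and Tanc2. Their lower r ran from 0.20 to 0.27, which is weak for counts of this depth.

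Early genes that are not members were taken from a list for comparison. Of these 34 genes, 10 were at least 1 higher in the adult, against 5.44% of all genes. At puberty 2 (Spry2 and Plk2) were at least 1 higher, against 8.70%, and the median difference was 0.46. In cells 48 to 188 the counts were 15 and 1 (10.2% and 8.73% of all genes), with a median of 0.64. In the other adult cells they were 3 and 6 (3.96% and 17.1%), with a median of −0.02. Gem, an early-induced GTPase, differed by 3.71 (3.93 in cells 48 to 188 and 3.19 in the others), and Ccn2, a matricellular protein also called CTGF, by 2.93 (3.21 and 2.26). Nfkbia, the inhibitor of NF-kappa-B, was 3.00 above puberty in cells 48 to 188 and −0.02 from it in the other adult cells, and Arc, an activity-regulated gene, was 3.69 and 0.86 above it. Of 25 further chaperone genes, 5 (Hspa2, Hspa5, Hspb8, Bag3 and Dnajb9) were at least 1 higher in the adult, against 5.44% of all genes. Cacybp was at least 1 higher at puberty, against 8.70%. In cells 48 to 188 the counts were 5 and 0 (10.2% and 8.73% of all genes), with a median difference of 0.52. In the other adult cells they were 1 and 9 (3.96% and 17.1%), with a median of −0.56. Bag3, a co-chaperone of HSP70, differed by 2.85 in cells 48 to 188 and 0.17 in the others, and Hspa5, the HSP70 of the endoplasmic reticulum, by 1.74 and 0.46. None of 11 upstream factors, among them Srf, Elk1 and Creb1, passed a difference of 1 over all adult cells. Of 10 housekeeping genes, 3 (Actb, Tubb5 and Ywhaz) were at least 1 higher at puberty, against 8.70% of all genes.

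Cell quality moved with stage to some extent. The median mitochondrial share of reads was 7.91% in pubertal and 11.8% in adult cells, and the median number of kept read pairs was 309941 and 331034. The mitochondrial median was 12.2% in cells 48 to 188 and 9.00% in the other adult cells. The part of this in the differences between the adult sets was not tested. Without the cells that held 3 or more fibroblast markers, the stage differences were 0.79 for the AP-1 score, 0.56 for the other early score and 1.31 for the heat shock score. The part of dissociation, capture and handling in these values cannot be told apart from stage, because no label records them. In sums over cells, fewer expressing cells and less RNA per cell cannot be told apart either.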

How the data were processed

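The authors deposited 1 table for each of 444 cells, with unnormalized counts of the read pairs assigned to each gene. The authors aligned paired reads to mm10 and assigned them to genes with featureCounts; versions and the use of strand are not given in the sources used here. Counts of overlapping genes and of near-identical paralogs such as Hspa1a and Hspa1b are therefore uncertain. The combined table of the series held the same values and was not used.

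Entrez identifiers were looked up in RefSeq (GRCm38.p6), and 15 mitochondrial and 124 ribosomal protein genes and all unmatched identifiers, with 1.84% of read pairs, were left out. Cells ranged from 1 to 1456360 read pairs, and the minimums of the study (100000 read pairs, 1500 genes) were applied. Doublets were not called here, as cells were inspected in the capture chambers by the authors. Log2(CPM+1) was averaged over cells, and for shares and sums each cell was thinned to 100000 read pairs (seed 1). Intervals are exact Clopper-Pearson or Poisson, at 95%, for counting error only. Classes were cut at a difference of 1 between mean basal and luminal marker levels. Adult cells 48 to 188 were set apart because of an earlier finding on Rn7sk.

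No test was run, since the labels name no replicate of a stage. The members and all lists were chosen with earlier results of these data known. All members are accounted for. Other genes named belong to a comparison list and passed a difference of 1, or are among the 10 most like the AP-1 score, though not all such genes are named; Srf, Elk1 and Creb1 are named as examples of their list. Alternatives were a pseudocount of 10 CPM, thinning, TMM factors, CPM over all genes, stricter cells, medians, each adult set, each class, other class cuts and thresholds, no filter, and leaving out fibroblast-marked cells or the highest cell. The difference of means was tried on simulated counts with changes placed only in the more abundant genes. That trial does not bear on members that were low or absent in most cells. Python 3.11.15, numpy 2.4.6, scipy 1.17.1, pandas 2.3.3, R 4.3.3 and edgeR 4.0.16 (TMM factors) were used.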

Additional observations from a re-analysis of the deposited data

How the results depend on the processing

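Each stage is 1 sample, so all values rest on the spread over cells and no alternative carries a test. No paired analysis was possible because the results come from no test and the cell numbers only name cells. Leaving out 1 replicate was not possible for the same reason. Of 118 recomputed summaries (scores and counts of members), 94 kept their direction and stayed within 1.5 times the reported value. Of the differences of single members, 265 did so, 183 did not, and 3 more, all reported as at least 1, changed sign. Of the shares of cells, 75 stayed within their interval and 11 did not, and of the ratios of sums, 32 held and 9 moved. In the other adult cells, the heat shock stage difference was −0.069, and the differences of Nr4a2 (−0.45), Hspa1b (−0.13) and Hsph1 (−0.077) turned negative. These are the ones with a reported difference of at least 1. In all, 18 members were below 0 in that set against 10 over all adult cells, among them Fosl2, Jun, Ier5, Myc, Dusp5, Hspa8 and Hspb1, whose reported differences were positive but under 1. The stage difference in luminal-marked cells was 0.36 for the AP-1 score, −0.0084 for the other early score and 0.40 for the heat shock score, and in basal-marked cells it was 1.41 for the AP-1 score. With a pseudocount of 10 CPM, which lowers the weight of low values, the stage difference was 0.28 for the other early and 0.84 for the heat shock score, and the basal minus luminal difference was −0.36 (AP-1), 0.19 (other early) and 0.34 (heat shock) at puberty and 0.68 (other early) in the adult. Other basal minus luminal values that moved were the adult AP-1 score with the marker cut at 0 (0.29), the pubertal other early score in cells with 200000 read pairs and 2500 genes (0.20) or as a median (0.54), and the pubertal heat shock score without fibroblast-marked cells (0.29). The cause was not tested.

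The number of members at least 1 higher in the adult was 14 as reported (5.44% of all genes), 8 with a pseudocount of 10 CPM (1.46%), 5 in luminal-marked cells (3.52%) and 25 at a threshold of 0.5 (15.5%). The number at least 1 higher at puberty was 2 as reported (8.70%), 1 with a pseudocount of 10 CPM (2.73%), 0 with TMM factors (7.39%), 1 without fibroblast-marked cells (8.74%), 1 in basal-marked cells (11.0%), 4 in luminal-marked cells (13.2%) and 4 at a threshold of 0.5 (25.4%). Each percentage is the share of the 8767 genes that passed in that direction. TMM factors moved the median over all genes from −0.12 to −0.06. Egr3, Dusp5 and Socs3 had reads in under 10% of cells, so their levels rest on few cells.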
